A study of Mus musculus with 4 samples.

Results

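The stomach makes hormones and amines in scattered endocrine cells of its glands, and 9 genes of these cells were followed here: Ghrl, Sst, Gast and Gcg, which encode peptide hormones, Chga and Chgb, which encode granins, and Hdc, Tph1 and Slc18a2, which serve the synthesis and storage of histamine and serotonin. They were taken by gene symbol, from a list drawn up with earlier results of these data known, and all 9 were measured among the 18193 genes named on the array. The samples were RNA pools of the gastric corpus epithelium of wild-type mice aged 6 weeks, 3 mice to a pool, and 1 pool was hybridised per condition to an Affymetrix mouse genome array. The control pool came from vehicle-treated mice at 2.5 days. The other 3 pools came from tamoxifen-treated mice, dissected 12 hours after treatment or 2.5 or 4.5 days after it. Tamoxifen, a selective estrogen receptor modulator, was given into the peritoneum at 5 mg per 20 g of body weight to bring about SPEM, a metaplasia of the corpus glands, and its vehicle was sunflower seed oil (90%) with ethanol (10%). Mice were of the FVB/N, BALB/c and C57BL/6 strains and were injected on 1 day or on 3 days, and the labels tie neither strain nor schedule to an array.

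Endocrine cells store peptides in dense-core granules, where granins such as chromogranin A help to pack the cargo and proconvertases cut prohormones to size. In the corpus, enterochromaffin-like cells release histamine under the control of gastrin and drive the parietal cell to secrete acid, D cells release somatostatin and hold both in check, and X/A-like cells release ghrelin, the hunger hormone. Gastrin itself comes mainly from G cells of the antrum, the neighbouring part of the stomach.

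The somatostatin promoter is the textbook site of the cAMP response element (CRE), TGACGTCA, and the same motif is known from granin promoters. Stretches just upstream of the annotated start are shown for Sst and Ghrl, the hormone genes with the largest differences at 4.5 days. For Ghrl the most upstream of 4 annotated starts was used. Stretches of the granin genes, whose differences at 4.5 days were smaller, are also shown. Each runs 5′ to 3′ over 120 bases and ends at the base before the start (RefSeq, GRCm38.p6). Capitals mark the CRE or, in Chga, its core TGACG.

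Sst, chr16:23890845-23890964, minus strand: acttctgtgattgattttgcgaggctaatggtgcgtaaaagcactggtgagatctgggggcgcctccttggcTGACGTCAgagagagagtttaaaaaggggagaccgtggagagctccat
Ghrl, chr6:113719912-113720031, minus strand: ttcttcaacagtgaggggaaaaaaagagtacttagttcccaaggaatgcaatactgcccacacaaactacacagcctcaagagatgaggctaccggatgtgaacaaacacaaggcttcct
Chgb, chr2:132781522-132781641, plus strand: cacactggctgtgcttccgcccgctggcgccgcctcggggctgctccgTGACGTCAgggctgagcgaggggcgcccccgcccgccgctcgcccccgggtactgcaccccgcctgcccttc
Chga, chr12:102554821-102554940, plus strand: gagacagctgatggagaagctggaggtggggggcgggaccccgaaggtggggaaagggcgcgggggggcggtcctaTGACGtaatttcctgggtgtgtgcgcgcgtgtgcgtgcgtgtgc

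The motifs were searched on both strands in windows of 300 bases (250 before the start and 50 from it), and every CRE also counts as a core. The CRE began at base -48 of Sst, -72 of Chgb and -4 of Slc18a2, counting back from -1 at the base before the start. Thus 3 of the 9 genes had it, against 2.03% of 27025 genes with such a window. The core occurred in 5 of the 9, those 3 with Chga and Tph1, against 23.0% of genes. The motif was known beforehand from Sst and from granin promoters, so an excess over all genes was partly built in. Enrichment of the members was not tested. The windows of Gast, Gcg and Hdc and all 4 of Ghrl held neither. The CRE was therefore found both in Sst and in Chgb, whose differences from vehicle at 4.5 days were the largest and the smallest in size of the 9.

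Values are log2 RMA levels, so a difference of 1 is 2-fold, and each condition was 1 array, which allows no test over samples and no SD. A gene counted as expressed in a comparison if the brighter of its 2 arrays reached the median of all probe sets on that array, which was 5.3 on each. All 9 endocrine genes did so on all 4 arrays. The 18 hybridisation controls, added in known amounts, differed from vehicle by -0.09 to 0.20 at 12 hours, by -0.31 to -0.04 at 2.5 days and by -0.29 to -0.03 at 4.5 days. The poly-A controls above the filter differed by -0.15 to 0.64, by -0.15 to 0.28 and by -0.19 to 0.72 in the same order. From 2.5 to 4.5 days these ranges were -0.14 to 0.03 and -0.22 to 0.52. The 12-hour array stood apart: all 8 measured acinar genes of the pancreas were at least 2-fold higher there than in vehicle, though only 3 of them lay above the median on all arrays, and all 7 expressed squamous genes at least 2-fold lower. Of 8 squamous genes measured only 2 lay above the median on all arrays. Krtdap (4.21), Krt13 (4.22), Krt4 (4.74), Lor (5.00) and Sprr3 (5.28) were below it at 12 hours. These passed the filter only through vehicle, so a lower value was built in. Of the corpus marker genes 9 of 9 measured lay above the median on every array. The antral markers Pdx1 (7.01 to 7.41) and Nkx6-3 (8.12 to 8.37) did so too, although the label names the corpus.

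The peptide hormone genes Sst, Ghrl and Gcg were the members furthest below vehicle at 4.5 days, each by more than 2-fold, and Gast was lower by less. In each of the 4 the order of the arrays was vehicle, 12 hours, 2.5 days, 4.5 days from high to low.

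Sst, the somatostatin gene of D cells, had levels of 11.39 in vehicle and 11.24, 10.50 and 9.48 at 12 hours, 2.5 and 4.5 days of tamoxifen. The vehicle and 12-hour arrays were the closest neighbours, and each array was lower than the one before it. Its difference from vehicle was -0.15 at 12 hours, -0.89 at 2.5 days and -1.92 at 4.5 days, the last a 3.77-fold lower level. Of the expressed genes 0.47% had a difference as low or lower at 4.5 days.

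Ghrl encodes preproghrelin and had levels of 12.77 in vehicle and 12.66, 12.20 and 11.40 at the 3 times after tamoxifen. Again vehicle and 12 hours were close, at a difference of -0.11. The differences were -0.57 at 2.5 days and -1.36 at 4.5 days, which is 2.58-fold lower.

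Gcg encodes proglucagon, the precursor of glucagon and GLP-1. Its levels were 7.0 in vehicle and 6.69, 6.39 and 5.77 after tamoxifen, the last still above the median of its array. The differences were -0.31, -0.62 and -1.23, so the gene was 2.35-fold lower at 4.5 days, and its probe set matches alternative transcripts of the gene by its suffix.

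Gast, the gastrin gene, stood at 12.16 in vehicle and at 12.12, 12.03 and 11.59 after tamoxifen. Vehicle, 12 hours and 2.5 days did not differ beyond the hybridisation controls. At 4.5 days the difference was -0.57, below every hybridisation and poly-A control of that pair, though smaller in size than the largest poly-A difference (0.72).

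**Figure D1:**
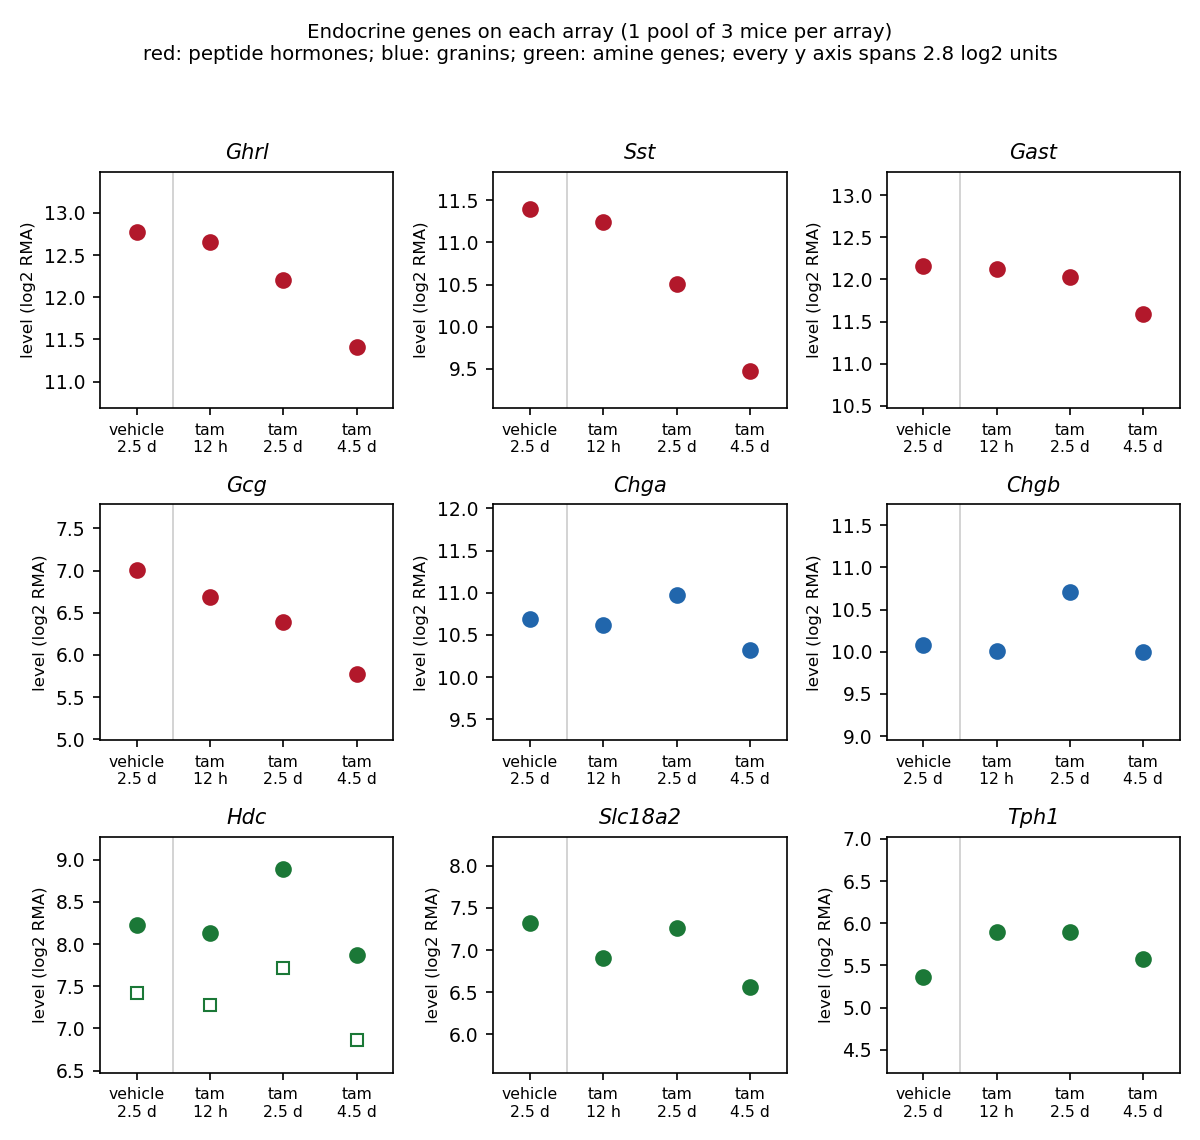
Log2 RMA level (y axis) of the 9 endocrine genes on the 4 arrays (x axis), 1 point per pool of 3 mice, with a span of 2.8 log2 units in every panel. Open squares give the dimmer probe set of Hdc. The peptide hormones were highest in vehicle and lowest at 4.5 days, as with Sst at 11.39 and 9.48. Chgb and Hdc were also lowest at 4.5 days but highest at 2.5 days, at 10.71 and 8.89.

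The granin genes followed another course. Chga, the general marker of endocrine cells, had levels of 10.68 in vehicle and 10.61, 10.98 and 10.32 at 12 hours, 2.5 and 4.5 days. Its highest array was tamoxifen at 2.5 days and its lowest tamoxifen at 4.5 days, with differences from vehicle of 0.29 and -0.36. The last lay below every control of that pair, though smaller in size than the largest poly-A difference (0.72). It was -0.20 when centred on the hybridisation controls. Chgb stood at 10.08 in vehicle and at 10.01, 10.71 and 9.99 after tamoxifen. At 2.5 days it was 0.63 above vehicle, and at 12 hours and 4.5 days it lay within the controls, at -0.07 and -0.08, the latter 0.08 when centred on those controls. Neither granin gene passed 2-fold in any comparison.

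The amine genes did not move as 1 group. Hdc, histidine decarboxylase, makes histamine in enterochromaffin-like cells and also in mast cells. Its levels were 8.23 in vehicle and 8.13, 8.89 and 7.87 after tamoxifen, which makes differences of -0.10, 0.66 and -0.36. The last lay below every control, though smaller in size than the largest poly-A difference of that pair (0.72). It was -0.20 when centred on the hybridisation controls. A dimmer probe set gave -0.14, 0.30 and -0.56, the same order of arrays from 7.71 at 2.5 days down to 6.86 at 4.5 days. Both carry a suffix that marks probes shared between transcripts.

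Slc18a2, the vesicular monoamine transporter VMAT2, loads histamine and other amines into granules. Its levels were 7.32 in vehicle and 6.91, 7.26 and 6.57 after tamoxifen. It was below vehicle by 0.41 at 12 hours and by 0.76 at 4.5 days and close to it at 2.5 days. The 12-hour difference was smaller in size than the largest poly-A difference of that pair (0.64). At 4.5 days the difference was just larger in size than the largest poly-A difference (0.72). Centred on the hybridisation controls, it was -0.59.

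Tph1, tryptophan hydroxylase 1, makes serotonin in enterochromaffin cells and mast cells. Its levels of 5.36, 5.90, 5.89 and 5.58 lay just above the array medians throughout. It was the 1 member above vehicle at each time, with differences of 0.54, 0.53 and 0.22. The first and the last lay above every hybridisation control and within the range of the poly-A controls of their pairs. The last was smaller in size than the largest hybridisation control difference (0.29). Centred on the hybridisation controls, the last was 0.38.

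Set against vehicle as a group, no member passed 2-fold at 12 hours. Among 12253 expressed genes 0.996% lay 2-fold or more above vehicle and 1.92% as far below it. The median difference of the members was -0.10, beside -0.04 over all expressed genes, and 8 of 9 were lower by any amount, as were 55.4% of expressed genes. This array differed from vehicle in collection time as well as in treatment.

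At 2.5 days, where vehicle was collected at the same time, again no member passed 2-fold, beside 3.32% higher (408) and 1.94% lower (238) of 12295 expressed genes. With arrays centred on the hybridisation controls, whose mean differed by -0.13 in this pair and -0.16 at 4.5 days, these counts were 560 and 179. The members went both ways, with 5 of 9 lower (47.3% of expressed genes) and a median of -0.07 beside 0.02. Peptide hormones had differences of -0.89 to -0.13, all 4 below vehicle, although Gast was level (0.00) when centred on those controls. Hdc, Chgb, Tph1 and Chga lay above it, at 0.66, 0.63, 0.53 and 0.29.

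At 4.5 days 3 of 9 members (Sst, Ghrl and Gcg) were at least 2-fold lower, against 2.72% of 12303 expressed genes, and none was at least 2-fold higher, against 3.8%. Over all expressed genes that is 335 lower and 468 higher, or 227 and 701 when centred on the hybridisation controls, with the same 3 members. The median of the members was -0.57 beside -0.01, and 8 of 9 were lower (7 when centred so, without Chgb), against 50.4%. The peptide hormones averaged -1.27 and the granins -0.22. Relative to Chga on the same arrays, Sst was lower by a difference of -1.56, Ghrl of -1.0, Gcg of -0.87 and Gast of -0.21. Relative to Chgb these values were -1.83, -1.28, -1.15 and -0.49. The hormone and granin genes thus differed from vehicle by unequal amounts. In such pools, fewer cells of a type and less RNA per cell cannot be told apart. The comparisons with vehicle share 1 vehicle array, which was collected earlier than the 4.5-day pool.

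**Figure D2:**
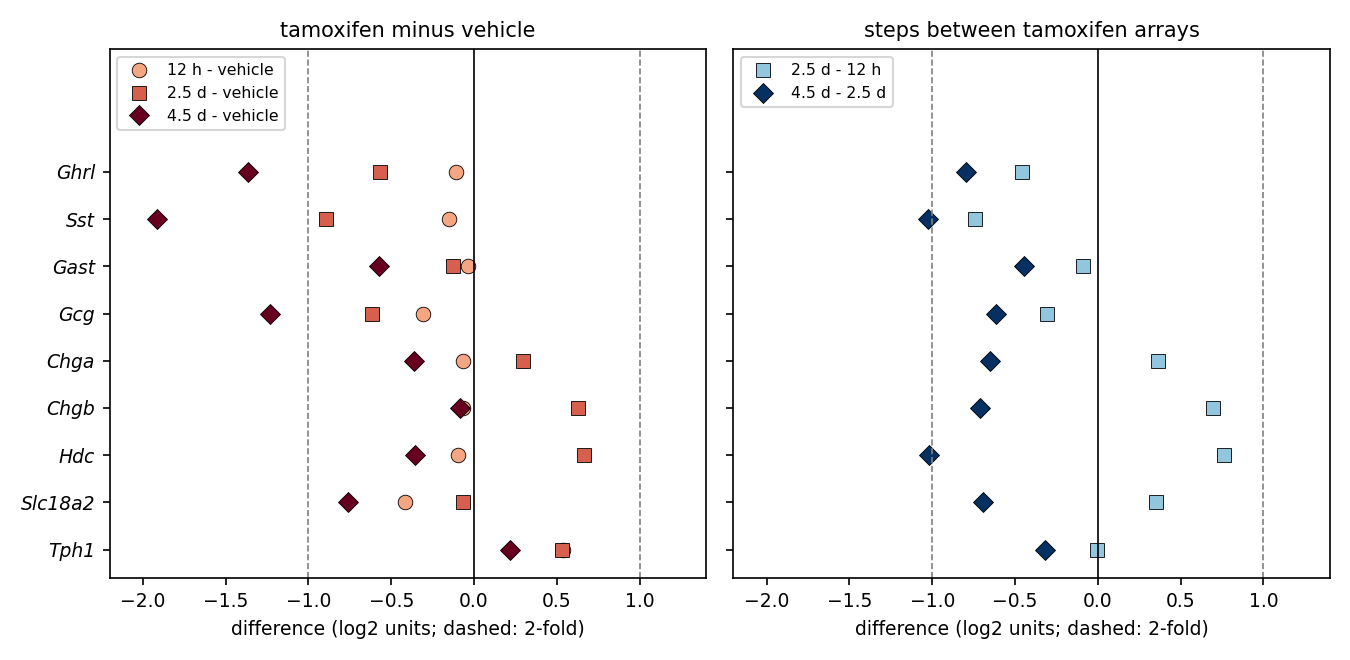
Differences in log2 units (x axis) of the 9 endocrine genes (y axis), with tamoxifen minus vehicle on the left and steps between tamoxifen arrays on the right. Each point is 1 array minus another, and dashed lines mark 2-fold. Sst, Ghrl and Gcg passed 2-fold at 4.5 days against vehicle, and all 9 points of the last step lie below 0.

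Between 12 hours and 2.5 days of tamoxifen the members parted. All 4 peptide hormones were lower, by -0.74 for Sst, -0.46 for Ghrl, -0.31 for Gcg and -0.09 for Gast. Centred on the hybridisation controls, Ghrl was at -0.29, Gcg at -0.13 and Gast at 0.08. Hdc was 0.76 higher, Chgb 0.69, Chga 0.36 and Slc18a2 0.35, and Tph1 was level at -0.00. None passed 2-fold, where 2.58% of 12205 expressed genes were higher and 0.655% lower, and 5 of 9 were lower by any amount, against 40.4%. Of these differences only those of Sst, Ghrl, Hdc and Chgb exceeded every hybridisation and poly-A control.

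From 2.5 to 4.5 days all 9 members were lower, whether hormone, granin or amine gene, while 56.2% of expressed genes were. Their differences ran from -1.02 for Sst and Hdc to -0.32 for Tph1, with a median of -0.69 beside -0.02 over all expressed genes. Sst and Hdc, 2 of 9, were at least 2-fold lower, as were 22 of 12117 expressed genes (0.182%). None was at least 2-fold higher, against 0.248%. The others were Ghrl at -0.79, Chgb at -0.71, Slc18a2 at -0.69, Chga at -0.65, Gcg at -0.62 and Gast at -0.44. The peptide hormones averaged -0.72, the granins -0.68 and the amine genes -0.68, so the roles did not part in this step as they had in the one before. All 9 lay below every hybridisation and poly-A control of this pair. In size, 7 of them exceeded the largest poly-A difference (0.52), and Gast and Tph1 did not. The counts past 2-fold rest on values close to the threshold: the dimmer probe set of Hdc gave -0.85, and with the 12-hour array left out and the other 3 normalized again Hdc was at -0.998, just short of it, and Sst alone passed. Centred on the hybridisation controls, neither did, at -0.99 each.

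**Figure D3:**
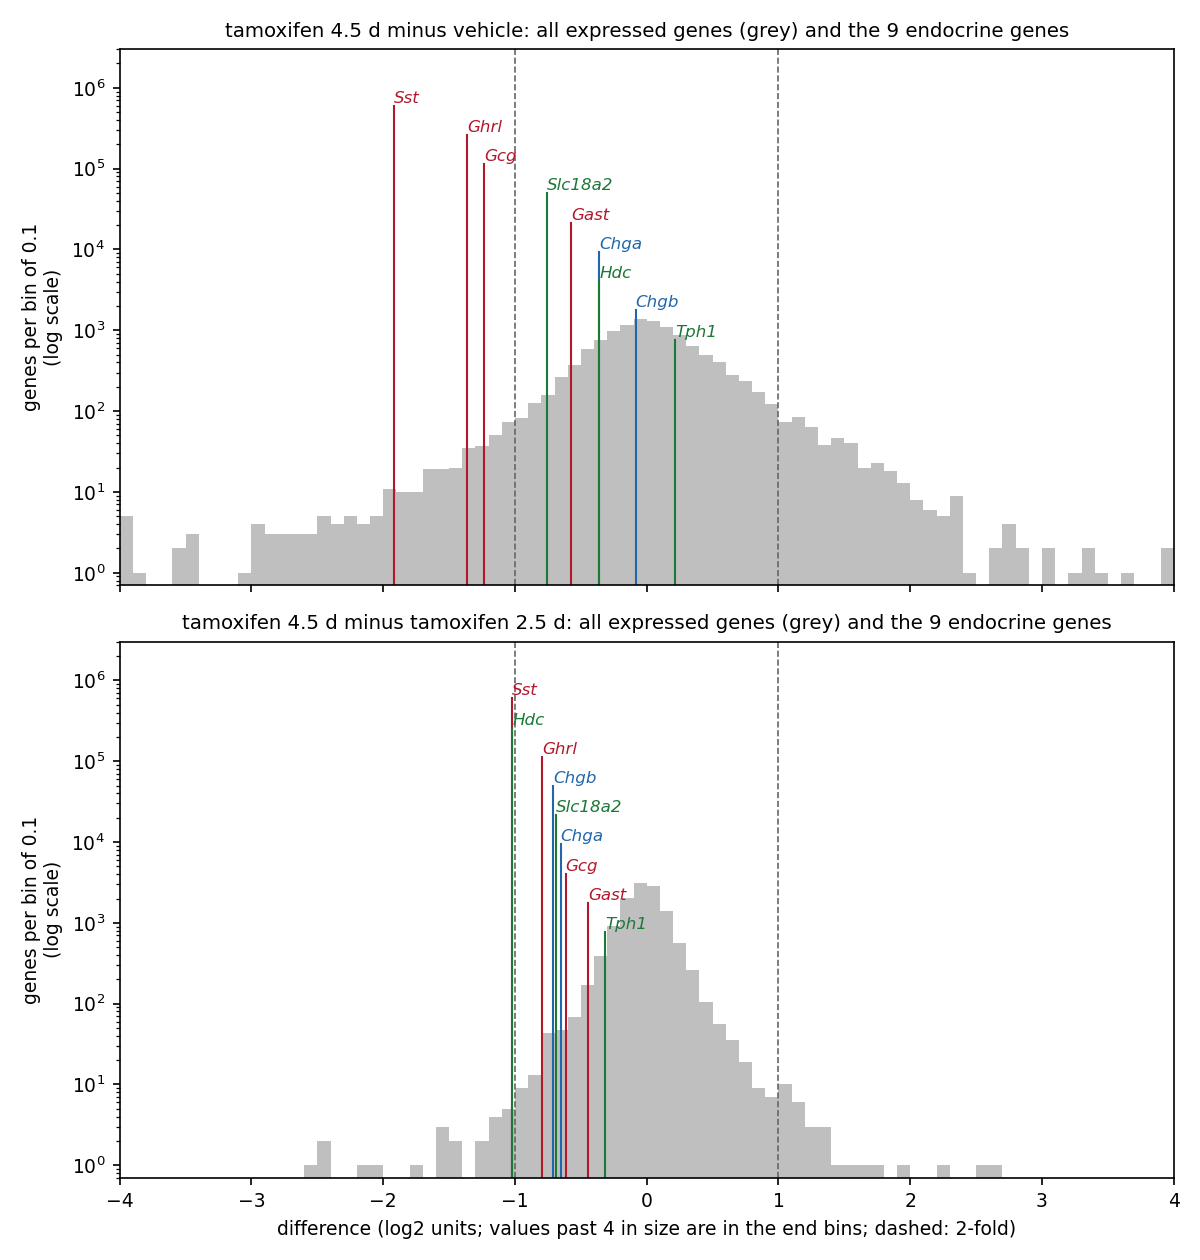
Number of expressed genes (y axis, log scale) by difference in log2 units (x axis, bins of 0.1) for 4.5 days against vehicle (top) and against 2.5 days of tamoxifen (bottom). Coloured lines place the 9 endocrine genes, red for peptide hormones, blue for granins and green for amine genes. The height of a line carries only its label. In the lower panel all 9 lie to the left of 0, from -1.02 to -0.32.

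Other granule proteins of endocrine cells went mostly below vehicle at 4.5 days. Of 9 measured, 8 were lower, with a median of -0.52. Resp18, an endocrine secretory protein, was at least 2-fold lower, at 7.14 against 8.31 in vehicle (-1.17). The granule membrane protein gene Ptprn2 was at -0.83 and the granin gene Scg2 at -0.60. Vgf, a neuroendocrine peptide precursor, was the exception. Its levels were 5.81 in vehicle and 6.04, 7.52 and 7.03 after tamoxifen, more than 2-fold higher at 2.5 days (1.70) and 4.5 days (1.21). Of the enzymes that process prohormones, 4 of 5 measured were expressed and all 4 were lower at 4.5 days, none past 2-fold. The largest difference was that of Mboat4, which acylates ghrelin, at -0.59. Mboat4 lay just below the median at 4.5 days. It passed the filter in this pair only through vehicle, so a lower value was built in. Carboxypeptidase E (Cpe) followed at -0.38, then Pam at -0.37 and the proconvertase gene Pcsk1 at -0.31, each above the median on all arrays.

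Among 8 other gut peptide genes, 6 were expressed at 4.5 days and 1 was past 2-fold. Nucb2, the precursor of nesfatin-1, a peptide known from ghrelin cells, had levels of 8.89, 8.06, 7.89 and 7.63 in the order vehicle, 12 hours, 2.5 and 4.5 days. Unlike Ghrl it was already lower at 12 hours, at -0.84. Secretin (Sct) and Gip were at -0.54 and -0.48 at 4.5 days and galanin (Gal) at 0.22. Of 6 monoamine genes 5 were expressed and all 5 were lower at 4.5 days, none past 2-fold. They included the monoamine oxidase genes Maob (-0.67) and Maoa (-0.35), the histamine-degrading enzyme gene Hnmt (-0.32) and Ddc (-0.24), whose product makes serotonin and dopamine.

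Of 12 measured endocrine transcription factors 6 were dim on all arrays, and none of the 6 expressed at 4.5 days passed 2-fold. Of these 6, 4 were lower, with a median of -0.17 over the 6, and Pdx1 (0.33) and Nkx6-3 (0.10) were higher. Neurod1, above the median on all arrays, was at -0.30. St18 and Insm1, at -0.63 and -0.59, passed the filter only through vehicle (5.39 and 5.43), so a lower value was built in, and their second probe sets gave -0.20 and -0.10. Isl1, a factor of several endocrine lineages, had levels of 9.25 in vehicle and 8.86, 9.59 and 9.21 after tamoxifen. Like Chgb and Hdc it was highest at 2.5 days, and its dimmer probe set was too.

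**Figure D4:**
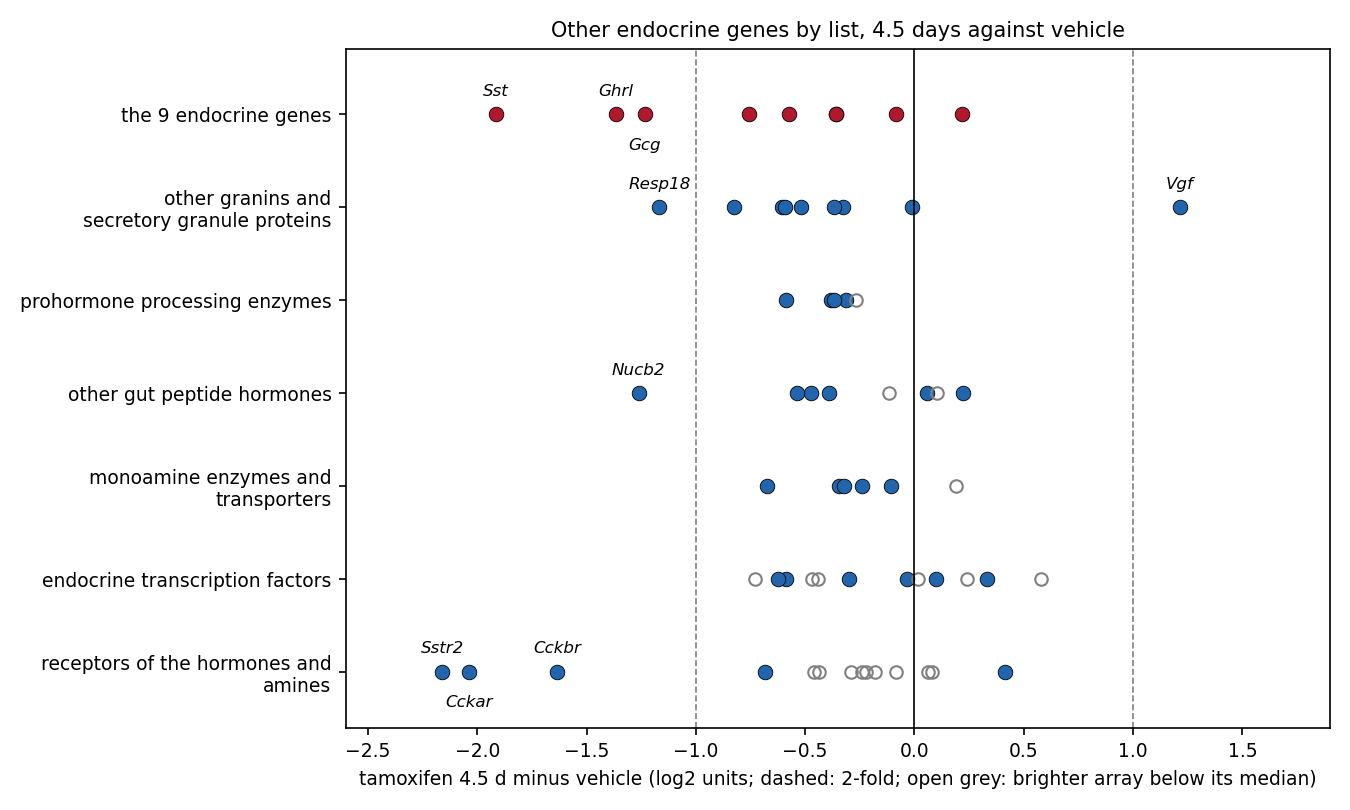
Difference between tamoxifen at 4.5 days and vehicle in log2 units (x axis), 1 point per gene, for the 9 endocrine genes and the lists of related genes (y axis). Filled points were expressed, open grey points had their brighter array below its median, and dashed lines mark 2-fold. Named genes passed 2-fold, from Sstr2 at -2.16 to Vgf at 1.21.

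Among the receptors that read these signals, 9 of 14 measured were dim on all arrays. Of the 5 expressed at 4.5 days 3 were at least 2-fold lower, against 2.72% of expressed genes. The median at 4.5 days was -0.27 over all 14. Sstr2, a somatostatin receptor, had levels of 7.89 in vehicle and 6.6, 6.29 and 5.73 after tamoxifen, with differences of -1.29, -1.60 and -2.16. Cckar, a cholecystokinin receptor, differed by -1.40, -1.29 and -2.04. Cckbr, the gastrin receptor, differed by -1.24, -1.10 and -1.63, and a second, dim probe set gave 0.30, 0.24 and 0.42. The histamine receptor gene Hrh2 differed by -0.97, -1.05 and -0.68, and Hrh3, near the median, by 0.53, 0.32 and 0.41. Hrh3 lay below the median in vehicle (5.09) and passed the filter only through the tamoxifen arrays, so higher values were built in. Sstr2, Cckar and Cckbr were thus more than 2-fold lower at 12 hours already, as were 1.92% of expressed genes by at least 2-fold. There Sst, which encodes the ligand of Sstr2, lay at -0.15 and Gast, which encodes that of Cckbr, at -0.04. The 12-hour pool was collected at another time than vehicle and held acinar transcripts. Several of these receptors are also carried by parietal or chief cells. In the same pools the parietal gene Atp4a was at -0.66, -1.34 and -1.10 and the chief cell gene Pgc at -0.17, -1.27 and -2.44, and their part in the receptor values was not tested.

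Genes of other cell types that share members were set beside them. Hdc, Tph1 and Slc18a2 are also mast cell genes. Of 11 mast cell markers 3 were at least 2-fold higher and 1 lower at 4.5 days, and the list's mean level ran from 5.52 in vehicle to 5.69, 5.67 and 6.22 after tamoxifen. The protease genes Mcpt1, Mcpt2 and Cma1 were at 3.64, 2.37 and 1.47 above vehicle there. Mcpt1 was dim on the other arrays (3.38 in vehicle) and passed the filter only through this one. Cma1 lay just below the median in vehicle (5.25) and passed in this pair only through the 4.5-day array. Higher values of these genes were thus built in. Kit was at -1.14, and the IgE receptor genes Fcer1a and Ms4a2 were dim on all arrays. On the 4.5-day array all 3 amine genes were lower than at 2.5 days. S100a8 and S100a9, neutrophil genes, were at 2.77 and 1.12 at 2.5 days, the array on which Hdc was highest, while 3 of 5 measured markers of that list were dim on all arrays. S100a8 was dim in vehicle (4.56) and passed the filter in this pair only through the 2.5-day array, so a higher value was built in. The part of mast cells and neutrophils in the amine values was not tested.

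Sst and Gcg are also islet hormones, and the 12-hour pool held acinar transcripts. Cela2a stood at 13.62 there and 4.29 in vehicle. No islet gene was 2-fold higher at 12 hours, but 5 of 7 measured were dim on all arrays, among them Iapp and Ppy. The list's mean level was 4.33 in vehicle and 4.47, 4.42 and 4.48 after tamoxifen. At 12 hours Iapp was 0.42, G6pc2 0.32, Ppy 0.20 and Ins2 0.11 above vehicle. Slc2a2 was level, and Slc30a8 (-0.003) and Pdx1 (-0.06) were lower. Ins2 lay at 5.71 in vehicle and 5.82 at 12 hours. Sst and Gcg were not higher than vehicle on that array. Enteric neurons also carry granin genes and somatostatin. Of 7 neuronal markers measured 5 were expressed, none past 2-fold at 4.5 days and Tubb3 alone at 12 hours (1.06), with Vip at 8.84 in vehicle and 9.01 at 4.5 days and Prph at -0.60 and Uchl1 at -0.56. All 6 smooth muscle genes were lower in every tamoxifen array, none past 2-fold, with a median of -0.65 at 4.5 days and Actg2 at -0.81, and were not lower as a list from 2.5 to 4.5 days (median 0.11). Of 6 intestinal markers measured 1 passed 2-fold at 4.5 days, Fabp2 at -1.20, and Cdx1 was among the 2 dim on all arrays. The part of islet, neuronal, muscle and antral tissue in the hormone values was not tested.

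**Figure D5:**
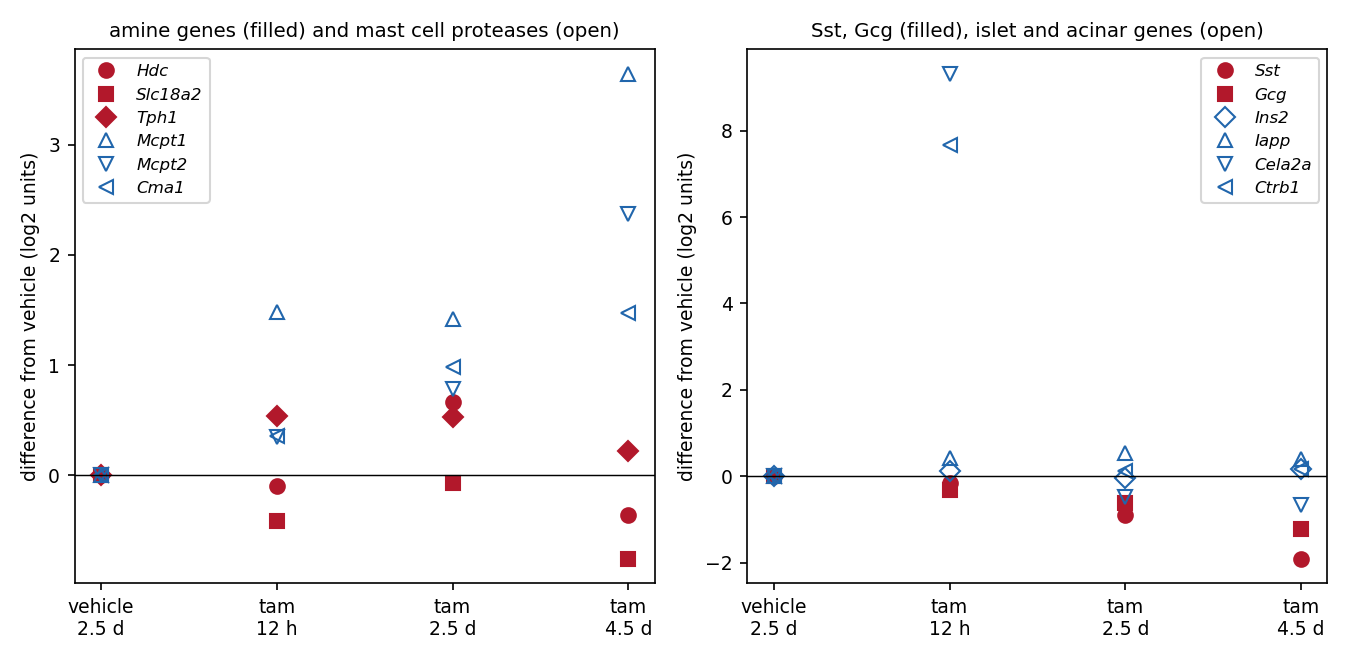
Difference from vehicle in log2 units (y axis) on each array (x axis) for the amine genes and 3 mast cell proteases (left) and for Sst and Gcg with islet and acinar genes (right), 1 array per point. Mcpt1, dim in vehicle, reached 3.64 at 4.5 days, where Hdc was at -0.36 and Slc18a2 at -0.76, and Cela2a, also dim in vehicle, reached 9.32 at 12 hours, where Sst was at -0.15 and Ins2 at 0.11.

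For the 4 members whose levels ranged over at least 1 log2 unit, the 3 genes with the most similar course were found among 12445 genes expressed on some array, by the root mean square distance of mean-centred levels over the 4 arrays. The nearest to Ghrl were Ces1f (0.07), Ceacam10 (0.08) and Shh (0.08), the hedgehog ligand of the gastric epithelium, which went from 11.04 in vehicle to 9.80 at 4.5 days. The nearest to Sst were Gabra4 (0.12), Cyp2d10 (0.13) and Cd36 (0.13), a fatty acid transporter, at 10.00 in vehicle and 8.35 at 4.5 days. Gabra4 and Cyp2d10 were near the median in vehicle (5.38 and 5.37) and below it on the other arrays. They counted as expressed only through vehicle, so lower values after it were built in. The nearest to Gcg were the lipase gene Mgll (0.06), Mn1 (0.07) and Gstt1 (0.07). Hdc had Cbr2 (0.05), Etfbkmt (0.11) and, as the only other member among these 12 places, Chgb (0.12). With 4 arrays many genes share a course, and these distances are descriptions.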

How the data were processed

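The authors deposited log2 values for 45101 probe sets. Per the submitters' processing notes, RMA and Partek were used, in versions not given in the sources used here. Log base 2 was inferred from the range of the values (2.06 to 14.85). RMA corrects background, normalizes arrays by quantiles and summarizes probes, which would hide any change common to most genes. The 9 members and all lists were chosen with earlier results of these data known. Probe sets with exactly 1 platform symbol were used (34945, controls left out). Each gene took the probe set of highest mean level, and only Hdc of the members had 2. Differences were taken in Python 3.11.15 with pandas 2.3.3 and counted at 2-fold, with no test, since each group was 1 array; the number of arrays limits the precision. From each list, up to 4 expressed genes with the largest difference from vehicle were named. Others (Hrh3, Vip, Iapp, Ppy, Fcer1a, Ms4a2, Cdx1, Nkx6-3) were named after their values were seen. The counting was tested on simulated data. Alternatives were the probe set, filter, centring and threshold, and 1 added after seeing the data. Promoter windows came from RefSeq (GRCm38.p6); all 9 symbols matched.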

Additional observations from a re-analysis of the deposited data

Results flagged for a closer look

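Hdc lay on opposite sides of vehicle at 2.5 and 4.5 days of tamoxifen, at 0.66 and -0.36, each outside the range of the hybridisation and poly-A controls of its pair, with 1 array per time. The second was smaller in size than the largest poly-A difference of its pair (0.72). Centred on the hybridisation controls the second was -0.20. Its second probe set gave 0.30 and -0.56. The difference between these values was not tested.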

How the results depend on the processing

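At 4.5 days against vehicle the count of members past 2-fold was 3 under most alternatives, 2 with the filter at the 75th percentile, which only 6 of 9 members passed, and 4 at 1.5-fold. All of these were lower. Over all genes 319 were higher and 265 lower of 7803 under that filter, and 1322 and 1010 of 12303 at 1.5-fold. At 12 hours the count of members was 0 throughout. At 1.5-fold it went from 0 to 4 at 2.5 days (2 higher, 2 lower; over all genes 1191 higher and 741 lower of 12295), from 0 to 3 between 12 hours and 2.5 days (2 higher, 1 lower; 918 and 278 of 12205) and from 2 to 7 between 2.5 and 4.5 days (all lower; 113 higher and 142 lower of 12117). In that last step it was 1 with the mean of all probe sets, 1 with the probe set whose absolute difference was the median one, 1 when centred on the median of expressed genes, 1 without the 12-hour array (chosen after seeing the data) and 0 when centred on the hybridisation controls, where Sst was at -0.99 and Hdc at -0.99. Of 212 member differences recomputed, 173 moved by less than the SD of the hybridisation controls and 39 by more, at most by 0.36, and 5 changed sign, all of them under centring on those controls: Gast (0.00) and Slc18a2 (0.06) at 2.5 days and Chgb (0.08) at 4.5 days against vehicle, and Gast (0.08) and Tph1 (0.17) between 12 hours and 2.5 days. Under the settings that change the probe set, no member but Hdc could move, since only Hdc had more than 1. Centring shifted all members of a comparison by the same amount. The count of 173 is therefore no measure of robustness by itself. At 1.5-fold and with the 75th percentile filter the counts over all genes also differ, as with 271 against 408 higher at 2.5 days under that filter. No paired analysis was possible because each group was 1 array. Variation between mice cannot be estimated from these pools.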
